A study of Mus musculus with 16 samples.

Results

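The genes described here encode the proteins of the cytosolic ribosome. They were chosen by symbol: Rpl, Rps or Rplp, a number and at most 1 further letter, without pseudogenes, S6 kinases or genes named as like genes. Of 18193 genes named on the array, 41 fitted, against 76 such genes in the RefSeq table (75 of them protein-coding). They were 20 proteins of the large subunit, 19 of the small subunit and the stalk proteins Rplp0 and Rplp2. The other genes of the family, among them Rpl3, Rpl5, Rpl10, Rpl36a, Rplp1 and Rps27a, had no probe set with a single gene symbol and are not analysed here by gene.

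Whole organs, cerebellum or lung, were taken from C57BL/6J mice at postnatal day 7 and their RNA was measured on Affymetrix arrays. The 4 groups, each of 4 arrays, were cerebellum with vehicle (B78 to B81), cerebellum with dexamethasone (B39, B49, B50 and B52), lung with vehicle (B12, B14, B19 and B22) and lung with dexamethasone (B28, B31, B40 and B46). Dexamethasone is a synthetic glucocorticoid. Its dose and schedule, and the sex and litter of the mice, are not given in these sources. The p-values therefore measure only how far these samples spread, which may be technical. In whole organs, fewer cells of a type and less RNA per cell cannot be told apart.

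A ribosome joins a small subunit, which decodes the message, to a large subunit, which forms the peptide bond. The proteins are needed in matched amounts, and the stalk of the large subunit recruits the GTP-driven translation factors. Messages of ribosomal proteins are abundant in dividing and growing cells. Most begin with a cytosine followed by a tract of pyrimidines (C or T), the TOP motif, through which growth signalling by mTOR sets how well they are translated. A change in translation alone would not be seen in RNA levels.

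The promoters of the members that differed in a test are printed below with those of 3 members with long pyrimidine tracts, to show this start. Each line holds 30 bases before the annotated start and the first 10 bases of the transcript, from RefSeq on GRCm38.p6. Capitals mark the longest run of C or T, where it has at least 6 bases and overlaps the stretch from 5 bases before to 10 bases after the start. A run that passes the last printed base is cut, in Rps19 (7 bases long), Rpl13a (14) and Rps26 (9). Where a gene has several annotated starts (3 for Rps19, 2 for Rpl22), the start with the longest run is printed.
Rps6 (chr4:86857358-86857397, minus strand): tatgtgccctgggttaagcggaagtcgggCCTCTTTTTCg
Rps19 (chr7:24884883-24884922, plus strand): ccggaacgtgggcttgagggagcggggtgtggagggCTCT
Rps26 (chr10:128626497-128626536, minus strand): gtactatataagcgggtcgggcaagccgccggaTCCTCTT
Rpl22 (chr4:152324406-152324445, plus strand): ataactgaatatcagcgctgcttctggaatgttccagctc
Rpl37 (chr15:5116583-5116622, plus strand): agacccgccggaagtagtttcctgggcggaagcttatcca
Rpl13a (chr7:45128736-45128775, minus strand): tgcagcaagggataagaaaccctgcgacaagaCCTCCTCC
Rpl38 (chr11:114668550-114668589, plus strand): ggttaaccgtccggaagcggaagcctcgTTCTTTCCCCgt
Rplp2 (chr7:141447621-141447660, plus strand): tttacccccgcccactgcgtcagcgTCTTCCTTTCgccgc

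In Rps6, Rpl38 and Rplp2 the first transcribed base was C and lay within the tract. In Rpl22 and Rpl37 the run was shorter than 6. A promoter was listed for 36 of the 41 members. A run of at least 6 C or T was found at the start of 22 of them, 61.1% (exact Clopper-Pearson 95% interval 43.5% to 76.9%), against 27.6% of the 27025 genes in the table. A run of at least 8 was found in 47.2% of members and 13.0% of all genes. The annotated first base was C in 36.1% of members and 18.9% of all genes, and 22.2% against 3.01% began with C followed by at least 4 pyrimidines. In windows of 300 bases, read on both strands, the ETS core CCGGAAG was found in 47.2% of members, 9.93% of all genes and 15.0% of those on the array. TATAAA was found in 13.9% of members and 15.7% of all genes, and the GC box GGGCGG in 55.6% of members and 38.2% of all genes (57.3% of those on the array). These shares describe letters at annotated starts and are not sites of binding or translation.

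Each member was read from 1 probe set, the one brightest on average across the 16 arrays. On the deposited log2 scale 32 members lay between 12.86 (Rpl27) and 14.14 (Rps29), near the top of the range, where the highest value of any probe set was 14.83. The lowest of these means was at the 99.5th percentile of all genes. The other 9 lay from 3.95 to 9.27, with none between: Rps16 at 3.95, Rpl12, Rps27, Rpl14, Rpl39, Rpl27a, Rps25, Rps6 at 9.00 and Rpl37 at 9.27. The median of all genes was 7.42. Of the 32 bright probe sets, 10 carried the suffix _x_ and 2 _s_, which mark sets that can hybridise to transcripts of several genes. Another 16 carried _a_, which marks probes shared by transcripts of 1 gene. In all 28 carried such a suffix, called a shared-probe suffix below, against 1 of the 9 dim sets (_x_). Ribosomal protein genes have many processed pseudogenes, so signal from copies cannot be told apart in the _x_ and _s_ sets. In the other sets it was not examined. A level on one probe set was not compared with a level on another as an amount of RNA.

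The labelled tissues matched their markers. All 10 cerebellar markers, such as Zic1 and Calb1, were lower in vehicle lung, and 8 of 9 lung markers, such as Sftpc, were higher there. As a measure of RNA integrity, the 3′ minus 5′ log2 signal of Gapdh was 0.45 to 0.71 in treated lungs and 0.84 to 1.04 in control lungs, without overlap. In cerebellum it was 0.04 to 0.18 in 7 arrays and 0.52 in the vehicle array B81. The same signal of actin was 0.535 to 0.577 in treated and 0.524 to 0.942 in vehicle cerebella. In lung it was 0.451 to 0.642 and 0.611 to 0.667. An 18S rRNA control was 5.8 to 6.4 in treated and 6.2 to 9.5 in vehicle cerebella. In treated and vehicle lungs it was 6.1 to 7.1 and 6.5 to 7.2. Array B81 was the highest for both controls. Xist, which marks female samples, was above 10 in B49, B50 and B81 of cerebellum and in B14, B28, B31 and B46 of lung.

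In cerebellum, 1 ribosomal protein gene was called with dexamethasone, Rps6, read from a dim probe set (mean 9.00). Rps6 encodes the small-subunit protein that S6 kinases phosphorylate, and its probe set was 1.59-fold lower. No member rose, and 1 of 41 fell, where 2.84% and 1.97% of all genes rose and fell (limma adjusted p under 0.05 over all genes). The median log2 change of the members was -0.08, and 40 of 41 changes were below 0. The median over all genes was 0.01, and 8805 of 18193 changes were below 0.

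Rps6 was 8.69, 8.55, 8.50 and 8.68 with dexamethasone and 9.34, 9.05, 9.30 and 9.42 with vehicle. All 4 treated cerebella lay below all 4 controls. The mean fell from 9.28 ± 0.16 to 8.60 ± 0.09 (SD, n = 4), a log2 change of -0.67 ± 0.11 (SE; 95% interval -0.91 to -0.44; limma adjusted p = 0.00227). Over 19 alternative settings the change ran from -0.75 to -0.55 with adjusted p from 7.58e-05 to 0.0185. With the Gapdh signal as a covariate it was -0.64, and with Xist -0.65. A second Rps6 probe set, at the dim level of 4.82, changed by -0.43 (adjusted p = 0.374 in the limma fit of single probe sets). Both Rps6 sets were dim, and no bright probe set of a member was called in cerebellum. Which transcripts the Rps6 sets read was not tested. Values of Rps6 protein or its phosphorylation were not measured here.

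In lung the same Rps6 probe set was 9.03, 8.99, 9.30 and 8.88 with dexamethasone and 8.88, 9.09, 9.26 and 8.99 with vehicle. The groups overlapped throughout, and the log2 change was -0.00 ± 0.11 (95% interval -0.24 to 0.23; limma adjusted p = 0.990). The lung effect exceeded the cerebellar effect by 0.67 (± 0.16 SE; limma adjusted p = 0.00602; 0.59 to 0.80 over 26 alternative settings). This difference of effects was tested directly. It was the only one called among the 41 members, where 9.85% of all genes had a higher and 11.5% a lower effect in lung.

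**Figure D1:**
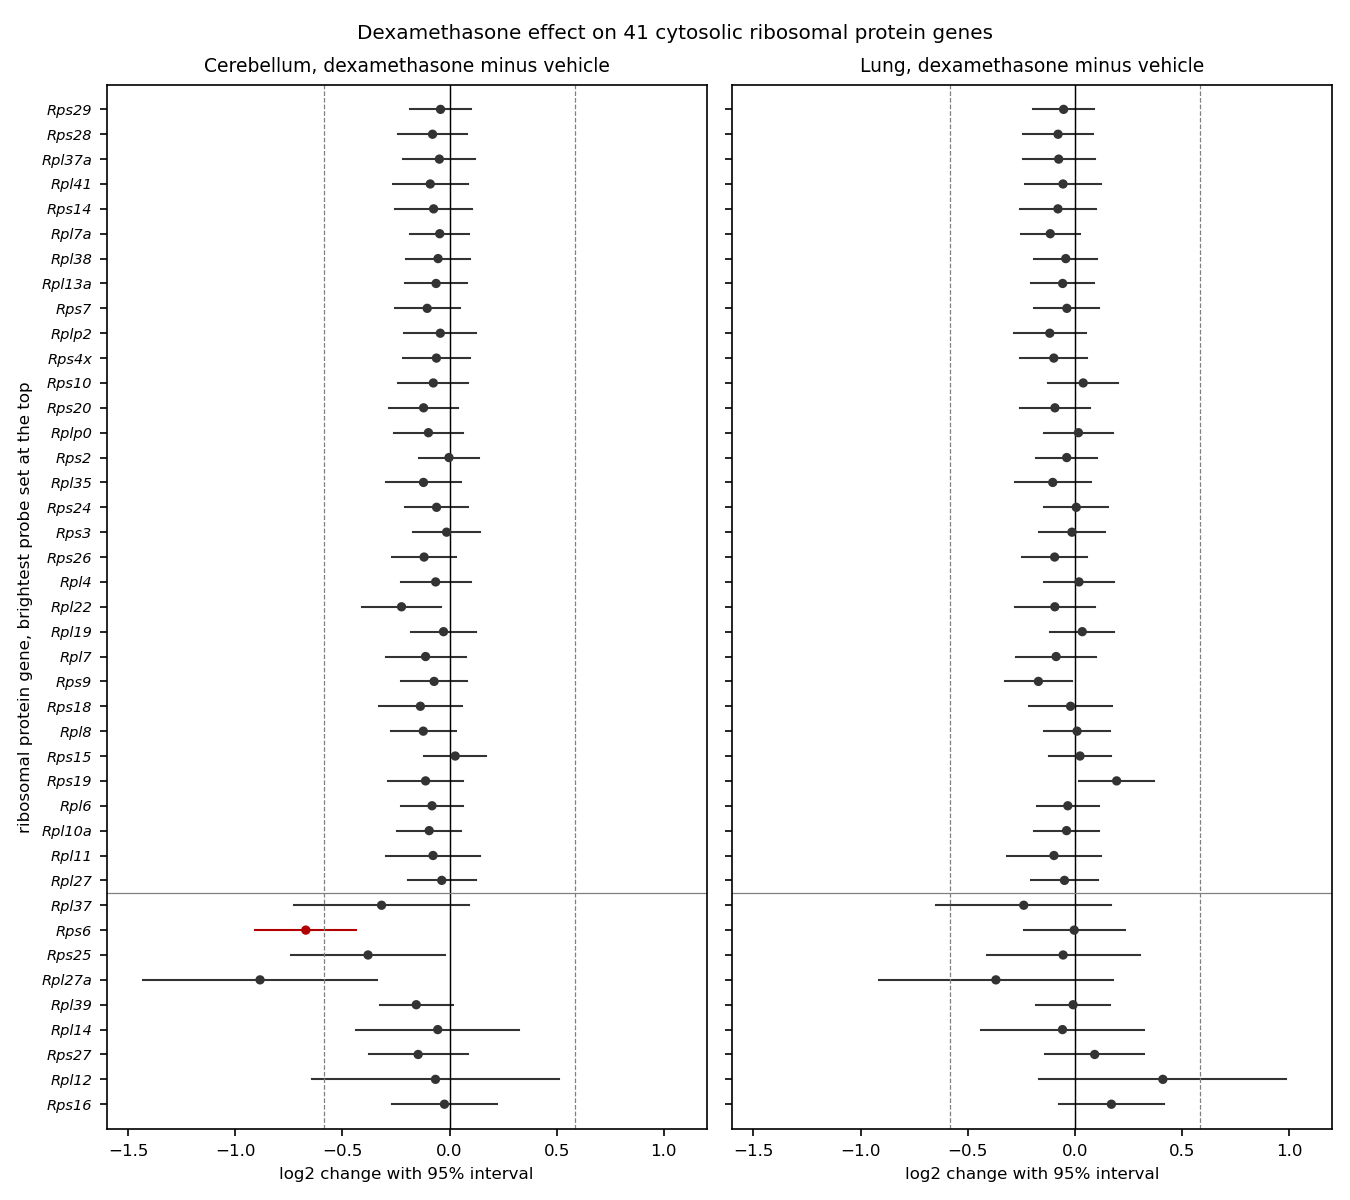
Log2 change with dexamethasone (point) and its 95% interval (line) for the 41 members, ordered from the brightest probe set at the top, in cerebellum (left) and lung (right); dashed lines mark 1.5-fold and red marks limma adjusted p under 0.05. The 32 members above the grey line have narrow intervals that stay within 1.5-fold, Rps6 alone is red in cerebellum, and no member is red in lung.

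Among the other members in cerebellum, 3 had an unadjusted p under 0.05. Rpl27a, a large-subunit protein, was 7.90, 8.77, 8.67 and 8.09 with dexamethasone and 9.16, 9.63, 9.57 and 8.62 with vehicle. The controls other than B81 lay above all treated arrays, and B81 lay among them. The log2 change was -0.88 ± 0.26 (limma adjusted p = 0.0620), and without B81 it was -1.09 (adjusted p = 0.0239). Rpl22, a large-subunit protein with a paralog, Rpl22l1, changed by -0.22 ± 0.09 (adjusted p = 0.182), and Rps25 by -0.38 ± 0.17 (adjusted p = 0.256). In all, 4 of 41 members, 9.76%, passed the unadjusted threshold in cerebellum, against 17.0% of all genes.

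Members were also counted by whether the groups of arrays overlapped. In cerebellum 4 members were lower on all treated arrays (Rpl6, Rpl7a, Rps6 and Rps26) and none was higher, against 5.44% and 7.13% of all genes. Apart from Rps6 these differences were small. Rpl7a, which lies in the large subunit, was 13.76 to 13.81 with dexamethasone and 13.82 to 13.86 with vehicle. Rps26, near the exit of the mRNA channel, was 13.37 to 13.50 against 13.53 to 13.65, a log2 change of -0.12 ± 0.07 (limma adjusted p = 0.460).

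The small shift below 0 in cerebellum was spread unevenly over arrays. The member median was 13.24, 13.25, 13.17 and 13.29 in treated cerebella and 13.28, 13.41, 13.26 and 13.28 in controls, so the groups overlapped. The treated array B39 had the lowest value of all 8 cerebellar arrays for 29 of 41 members, and the control B79 had the highest for 22. With cyclic loess normalization applied again, the median change was -0.02 and 25 of 41 changes were below 0. Over all alternatives the median stayed below 0, from -0.11 to -0.02.

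**Figure D2:**
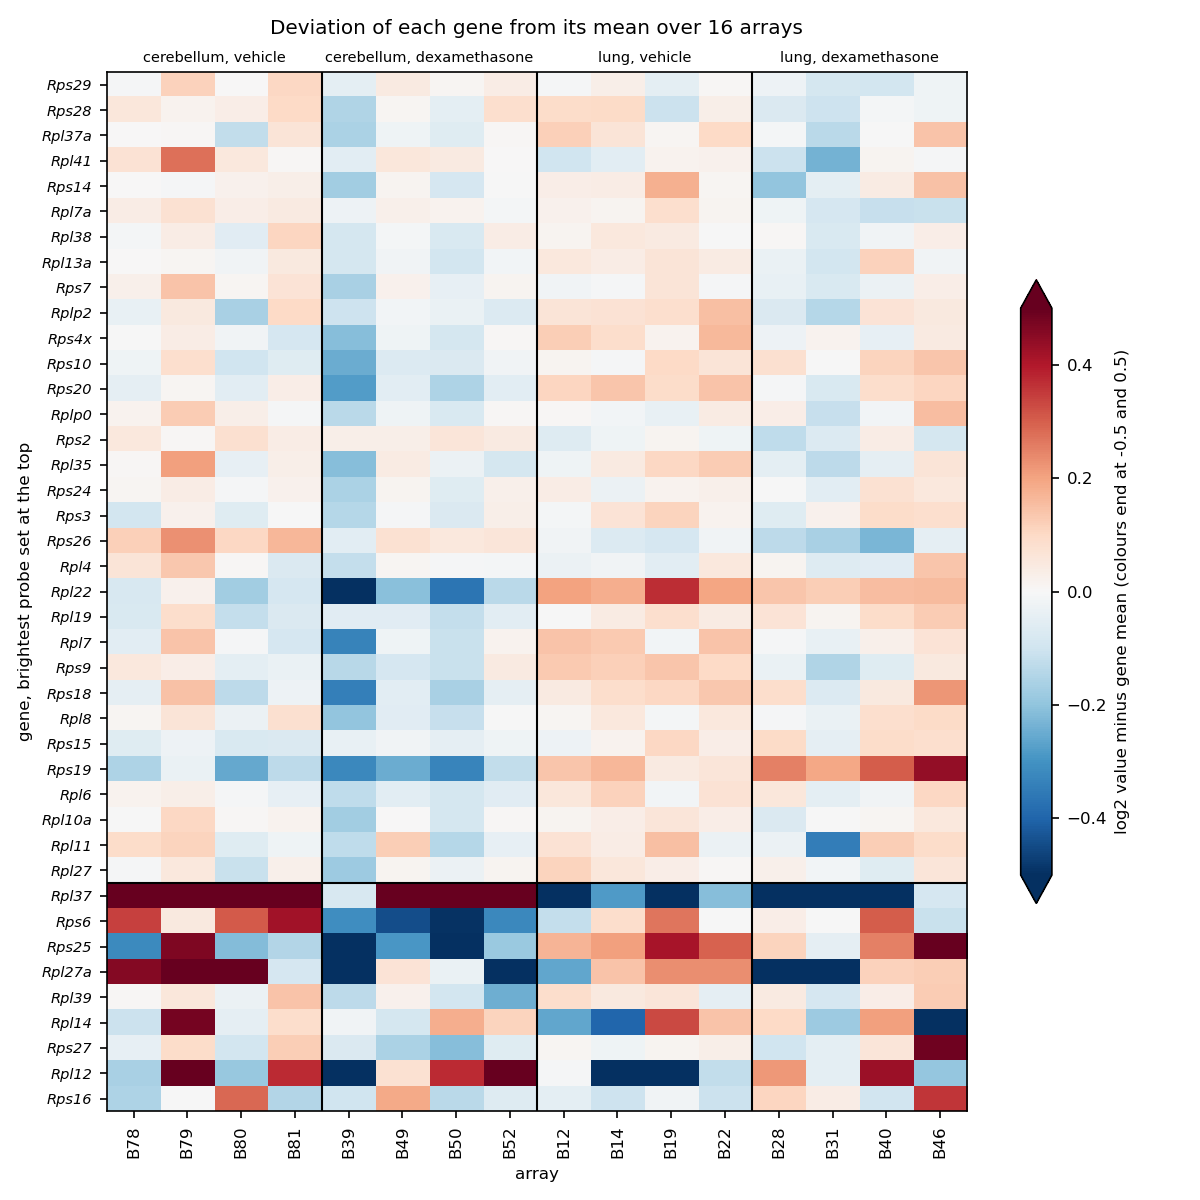
Deviation of each member (rows, brightest probe set at the top) from its mean over 16 arrays (columns, by group), on the log2 scale with colours ending at -0.5 and 0.5. Array B39 is blue for most rows above the line. Rps6 is red in the vehicle cerebella other than B79, which lies near the gene mean, and blue in the 4 treated ones. The rows of Rpl37 and Rpl27a below the line reach both ends of the scale.

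Markers of other cell types also moved with treatment in cerebellum, where 2.84% of all genes rose and 1.97% fell. Of 12 macrophage markers 3 fell, and their summed linear level was 3430 to 4337 with dexamethasone and 4603 to 5278 with vehicle. Of 9 neutrophil markers 2 fell, with sums of 369 to 811 and 640 to 1229. Their part in the Rps6 difference was not tested.

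In lung, no ribosomal protein gene changed by the same test, while 15.7% of all genes rose and 15.5% fell with dexamethasone. The members' median log2 change was -0.05, against 0.05 over all genes. Of the members 30 of 41 changed by less than 0, against 7818 of 18193 genes. The sign of the members' median was not stable: with cyclic loess normalization applied again it was 0.01 and 15 of 41 changes were below 0. All 32 bright members had 95% intervals inside 1.5-fold in both tissues, with outer bounds of -0.41 and 0.17 in cerebellum and -0.33 and 0.37 in lung. Of all 41, the intervals of 36 in cerebellum and 38 in lung lay inside 1.5-fold, which 77.8% and 60.5% of all genes also met.

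By limma, 2 members in lung had an unadjusted p under 0.05, 4.88% against 40.4% of all genes. Rps19, a small-subunit protein whose mutation causes Diamond-Blackfan anaemia in humans, was 13.38, 13.33, 13.44 and 13.57 with dexamethasone and 13.27, 13.30, 13.18 and 13.19 with vehicle. All treated lungs lay above all controls. The log2 change was 0.20 ± 0.08 (limma adjusted p = 0.0860), and in cerebellum it was -0.11 ± 0.08. The difference of the 2 effects, 0.31, had an adjusted p of 0.0739 and passed the threshold under cyclic loess (0.0487) and under a variance trend (0.0198).

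Rps9, a small-subunit protein, was 13.20, 13.08, 13.17 and 13.28 in treated lungs and 13.36, 13.35, 13.37 and 13.33 in controls. The treated values were all lower, with a log2 change of -0.17 ± 0.07 (limma adjusted p = 0.0904). Rpl7a and Rpl22 were the other members lower on all treated lungs, 3 in all, and Rps19 was the only one higher, against 15.5% and 15.1% of all genes. The Rpl7a change was -0.11 ± 0.06 and that of Rpl22 -0.09 ± 0.09. With a variance trend and robust estimation, Rps19, Rps9 and Rpl7a passed the threshold in lung.

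Of the 58 other genes with a mean in the span of the bright members, 19 were called there, 32.8%, and none of the 32 members. In cerebellum 0% of these other genes were called. For the difference of effects 15.5% were called, and 56.9% between the tissues. Signals near the top of the scale can still be compressed, so the changes given here may understate those in RNA. Compression of the members' own probe sets was not tested. The spread within groups was small. The median residual SD was 0.0670 for bright members, 0.258 for dim members and 0.185 for all genes.

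**Figure D3:**
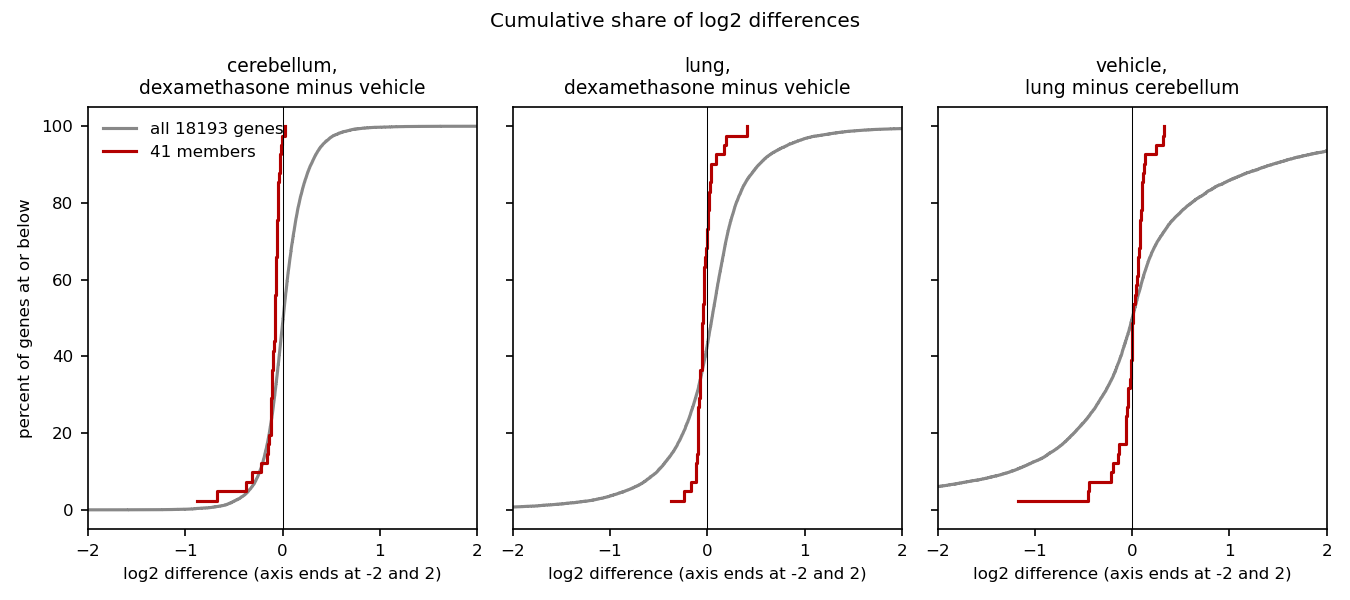
Percent of genes at or below each log2 difference, for the 41 members (red) and all 18193 genes (grey), with dexamethasone in cerebellum and in lung and between vehicle tissues. The red curves are steep around 0 in all panels, with medians of -0.08, -0.05 and 0.01, while the grey curve is widest between tissues; under cyclic loess normalization the lung median is 0.01 and the median between tissues 0.20.

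Between vehicle tissues, 4 members differed: Rpl22 and Rps19 had the higher level in lung, and Rpl37 and Rps26 in cerebellum. Of all genes, 28% were called higher in lung and 29.7% lower. Rpl37, a large-subunit protein read from a dim probe set, was 8.64, 8.99, 8.62 and 9.06 in lung and 10.02, 9.95, 9.83 and 10.19 in cerebellum. The groups lay far apart, 2.25-fold on this probe set (log2 difference -1.17 ± 0.19; limma adjusted p = 4.84e-05). The Rpl37 set, its only one with a single gene symbol, carries the suffix _x_, and the Rpl22 set carries _s_. Signal from copies cannot be told apart in either set. The 3 differences other than that of Rpl37 were below 1.25-fold. Rpl22 was 13.54 to 13.73 in lung and 13.19 to 13.39 in cerebellum (0.32 ± 0.09; adjusted p = 0.00502), and Rps19 13.18 to 13.30 against 12.88 to 13.10 (0.25 ± 0.08; adjusted p = 0.0172). Rps26 was 13.34 to 13.41 in lung and 13.53 to 13.65 in cerebellum (-0.20 ± 0.07; adjusted p = 0.0232).

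These tissue calls depended on scaling and on probe set. The median difference was 0.01, with 22 members higher in lung and 19 lower. Under cyclic loess normalization it was 0.20, 24 members were called higher in lung and 1 lower, and Rps26 was at -0.01. In that setting 5363 of all 18193 genes were called higher and 5165 lower, with a median over all genes of 0.01. With arrays centred on their medians Rps26 was at -0.15 (limma adjusted p = 0.160), and it missed the threshold without B79, B14 or B19 (-0.18, -0.19 and -0.19). Rps19 missed it without B80 (0.21; adjusted p = 0.0586). For Rpl22 another probe set, at level 10.42, gave -0.30 between tissues, opposite to the first, and the mean of its sets gave 0.06. With the Gapdh signal as a covariate 0 members were called between tissues, and calls over all genes fell to 27.8%. The differences were then 0.33 for Rpl22, 0.30 for Rps19, -1.08 for Rpl37 and -0.17 for Rps26. The Gapdh signal did not overlap between the vehicle tissues, so that fit can hardly separate it from tissue.

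**Figure D4:**
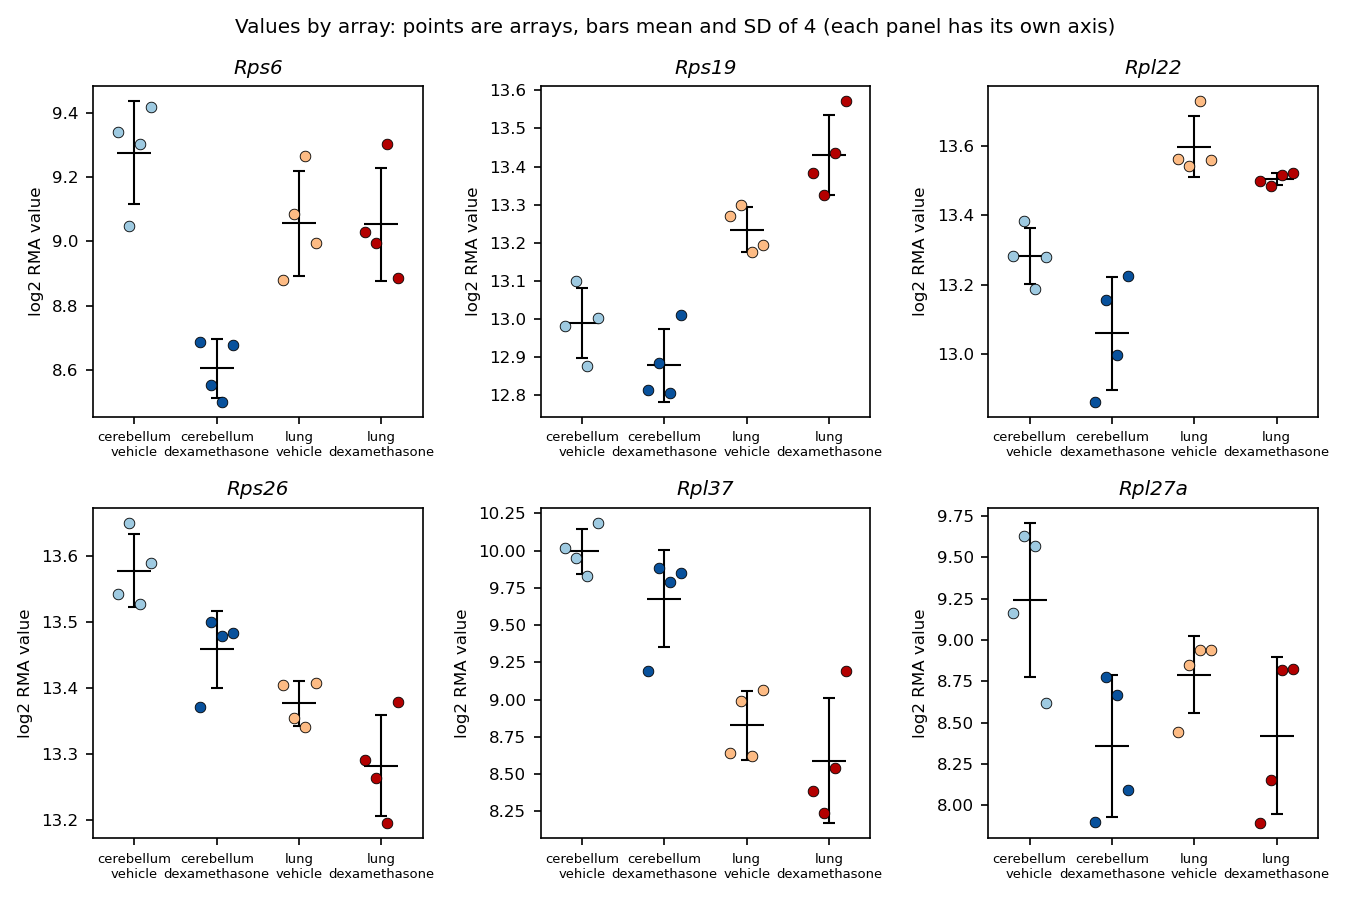
Deposited log2 value of 6 members on each array (points), with mean and SD of 4 arrays (bars), by group; each panel has its own axis. Rps6 is low in the 4 treated cerebella only, Rps19 is highest in treated lungs, Rpl22 and Rps19 are higher in lung, Rps26 and Rpl37 are higher in cerebellum (Rps26 at -0.01 between tissues under cyclic loess), and Rpl27a overlaps between groups.

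The other members named for their roles were not called with dexamethasone in either tissue. Rplp0, the base of the stalk and a frequent reference gene, was 13.46 to 13.60 in treated and 13.59 to 13.72 in control cerebella, and changed by -0.10 ± 0.08 there and 0.02 ± 0.08 in lung. Rplp2, an acidic protein of the stalk, changed by -0.04 ± 0.08 and -0.12 ± 0.08. Rpl11, which with Rpl5 and 5S rRNA binds Mdm2 when ribosome assembly fails, changed by -0.08 ± 0.10 and -0.10 ± 0.10. Rpl38, known for its role in the translation of Hox messages, changed by -0.05 ± 0.07 and -0.04 ± 0.07. Rpl13a changed by -0.06 ± 0.07 in each tissue, and the X-linked Rps4x by -0.06 ± 0.07 and -0.10 ± 0.07. The brightest sets, Rps29, Rps28 and Rpl37a, changed by -0.08 to -0.04 across both tissues. The smallest limma adjusted p of these members was 0.295, for Rplp2 in lung.

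The dim probe sets allow less. Rps16 lay at 3.79 to 4.30 on all 16 arrays, near the lowest value of the data set, 3.15, so its changes of -0.02 ± 0.12 and 0.17 ± 0.12 say little of the gene. Rpl12 changed by -0.07 ± 0.27 in cerebellum and 0.41 ± 0.27 in lung, Rps27 by -0.15 ± 0.11 and 0.09 ± 0.11, and Rpl39 by -0.16 ± 0.08 and -0.01 ± 0.08. None passed the test.

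Several members had further probe sets. In all there were 92 for the 41 members, up to 6 for a gene, and 12 members had a second set at least 3 below the first on the log2 scale. Fitted singly, 3 sets were lower in cerebellum and 3 in lung, where 3.23% and 24.0% of all probe sets were called. None of the 57 bright sets was called in either tissue. The sets called in cerebellum were that of Rps6, a set of Rps3 at level 8.79 (-0.74 ± 0.18, adjusted p = 0.0297) and a set of Rps20 at 5.77 (-0.52 ± 0.14, adjusted p = 0.0440). The Rps3 set was also lower in lung (-0.53 ± 0.18, adjusted p = 0.0398), while the bright Rps3 set changed by -0.01 in each tissue. Sets of Rpl41 at 7.12 (-0.52 ± 0.17) and of Rpl22 at 10.42 (-0.43 ± 0.09) were the others lower in lung. Single-set calls for the difference of effects were 3, for Rps6 and both dim sets of Rps20, against 14.3%, and between tissues 13 against 48.2%. The probes behind the dim sets were not examined, and which transcripts they read was not tested.

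Another 110 probe sets listed a ribosomal protein gene together with other genes and so named no member. Of these, 1 was lower in cerebellum and 1 in lung, where 3.23% and 24.0% of all probe sets were called. The set called in cerebellum was 1 of the 76 bright ones, and that in lung was not bright. Median changes of the 110 sets were -0.10 and -0.02.

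Among ribosomal proteins outside the symbol rule, none of Rpsa, Fau and Rps3a1 was called with dexamethasone. Rpsa changed by 0.02 ± 0.07 in cerebellum and -0.17 ± 0.07 in lung. Of 6 paralogs, Rpl7l1 rose in cerebellum by 0.52 ± 0.10 (limma adjusted p = 0.00660) and was -0.27 ± 0.10 in lung; the effects differed by -0.79 (adjusted p = 0.000922). With its 3 probe sets averaged the cerebellar change was -0.10 and the effects differed by 0.08 (adjusted p = 0.709), so that neither call held. The paralogs Rpl3l, Rpl22l1, Rpl39l, Rps27l and Rps4l were not called in either tissue.

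The lists that follow give the machinery around the ribosome. In cerebellum 2.84% of all genes rose and 1.97% fell. Of 69 genes for ribosome assembly and rRNA processing, 4 rose there and none fell, with a median of 0.06. They were Rrp1b (0.57 ± 0.11), Utp20 (0.50 ± 0.11), the rRNA methyltransferase Nop2 (0.48 ± 0.10) and Utp4 (0.45 ± 0.09). In lung 3 rose and 9 fell, with a median of -0.01, where 15.7% of all genes tested rose and 15.5% fell. The falls included Gar1 (-0.60 ± 0.14) and Nop58 (-0.58 ± 0.14), proteins of the snoRNPs that modify rRNA, and Gnl3l (-0.41 ± 0.10). Utp20 fell in lung (-0.42 ± 0.11), and its effects differed between tissues by -0.92 (limma adjusted p = 0.000707). Rrp1b was 0.14 in cerebellum under one choice of probe set (adjusted p = 0.475). Of 12 genes for RNA polymerase I, which makes rRNA, none was called in cerebellum and Polr1e fell in lung (-0.51 ± 0.13), at -0.20 on its probe set without a shared-probe suffix (adjusted p = 0.376).

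Of all genes, 2.84% rose and 1.97% fell in cerebellum, and 15.7% rose and 15.5% fell in lung. Among 37 translation factors, Eif4a2 rose in cerebellum (0.39 ± 0.10). In lung 3 of them rose and 5 fell, with Eef1a2 at 0.88 ± 0.19, Eif3b at 0.35 ± 0.09 and Eif3e at -0.26 ± 0.08. On the probe set without a shared-probe suffix Eif3e was at -0.01 (adjusted p = 0.979). Eif6, which keeps free large subunits apart from small ones, rose by 0.31 ± 0.10, and was at -0.00 on such a probe set. Of 76 mitochondrial ribosomal proteins 1 rose in cerebellum (Mrps22, 0.40 ± 0.10). In lung 7 rose and 3 fell, with Mrps6 at -0.88 ± 0.10, Mrpl1 at -0.50 ± 0.10, Mrpl14 at 0.46 ± 0.10 and Mrpl57 at 0.43 ± 0.09. Mrpl1 was at -0.17 with its probe sets averaged (adjusted p = 0.159). Between vehicle tissues 48 of these 76 were lower in lung and 2 higher, with a median of -0.35. Of all genes tested 29.7% were lower there and 28% higher. The Gapdh covariate lowered the calls between tissues over all genes to 27.8%, and the list was not counted under it. Its values did not overlap between the vehicle tissues, so it can hardly be separated from tissue.

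In cerebellum, where 2.84% of all genes rose and 1.97% fell, 2 of 24 genes of growth signalling rose and 2 fell. The mTOR inhibitor Tsc1 rose (0.67 ± 0.11), as did Larp4 (0.36 ± 0.10). Eif4ebp2, a translation repressor that binds the cap-binding factor Eif4e, fell (-0.76 ± 0.11). Pdcd4, a translation repressor that S6 kinase phosphorylates, also fell (-0.49 ± 0.12). In lung, where 15.7% of all genes rose and 15.5% fell, 5 of the list rose and 2 fell. Among them Ddit4, an mTOR inhibitor and known glucocorticoid target, at 1.10 ± 0.26, Deptor at 0.97 ± 0.13, Max at 0.66 ± 0.16 and the S6 kinase Rps6kb2 at 0.45 ± 0.09 rose, and Pdcd4 fell by 0.44 (± 0.12). Tsc1 was at -0.33 ± 0.11 in lung (limma adjusted p = 0.0376) and at 0.06 with its probe sets averaged; in cerebellum that setting gave 0.12 (adjusted p = 0.623). It also put Eif4ebp2 in cerebellum at -0.20 (adjusted p = 0.198). Some of these list calls were close to the threshold: over 19 alternative settings Eif4a2 was called in 10, Larp4 in 8, Mrps22 in 11, Pdcd4 in cerebellum in 13, Eif6 in 11, Eif3e in 15 and Tsc1 in lung in 7. With the Gapdh signal as a covariate, 19 of the 26 list genes named as called in lung and 3 of the 11 in cerebellum missed the threshold, while Cenpf, Bub1, Top2a, Cdk1, Cdkn1a, Deptor and Mrps6 in lung still passed it. That covariate put Rps6kb2 at 0.26 and the p53 target Ccng1 at 0.17 in lung. The Gapdh signal did not overlap between the lung groups, so treatment and covariate can hardly be separated there.

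In lung no member was called, while 15.7% of all genes rose and 15.5% fell. All 28 genes of the cell cycle list fell there, with a median of -1.95, and none was called in cerebellum. Among them were Cenpf (-3.95 ± 0.17), Bub1 (-3.11 ± 0.22), Top2a (-2.96 ± 0.17) and Cdk1 (-2.39 ± 0.17) in lung. With probe sets averaged the falls were smaller and still called, at -2.02 for Cenpf, -2.11 for Bub1 and -1.59 for Top2a. Of 7 genes of p53 and nucleolar stress 3 rose in lung: Cdkn1a (1.39 ± 0.24), Bbc3 (0.50 ± 0.13) and Ccng1 (0.31 ± 0.09). Marker lists moved in lung as well. All 9 neutrophil markers rose, with a summed linear level of 42269 to 64757 against 12373 to 18839. Of 8 lymphocyte markers 6 fell (964 to 1319 against 4366 to 5153), of 9 cardiac markers 8 rose (7231 to 14007 against 4186 to 5374) and of 7 erythroid markers 3 rose (8677 to 13636 against 4293 to 8221). Of 12 macrophage markers 6 rose and 2 fell (25701 to 34653 against 18594 to 22138). Of 9 brainstem markers 3 fell. Between vehicle tissues 7 of these 9 were called higher in lung and 1 lower, against 28% and 29.7% of all genes. In lung they therefore do not mark brainstem cells. The part of all these marker lists in the levels of the members was not tested.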

How the data were processed

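RNA was hybridised to Affymetrix mouse arrays, 4 per group and 16 in all. The deposited values are log2 and were made by the authors with RMA, per the submitters' processing notes; settings, version and build were not given in the sources used here. Arrays have no read depth, and their number limits the precision.

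Of 45101 probe sets, 64 controls were left out; 34945 had 1 gene symbol, updated through the gene identifier for 18032 of 18193 genes, and the 932 with several named none. A gene was read from its brightest probe set. limma 3.58.1 in R 4.3.3 (lmFit and eBayes, tested on simulated data) fitted the 4 group means over all genes with 12 residual degrees of freedom. P-values were adjusted by Benjamini-Hochberg over all genes and called under 0.05. Errors beside changes are standard errors.

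The members and lists were chosen with earlier results of these data known. Members named were up to 6 called in each direction per comparison, the 3 brightest and 3 dimmest, and a fixed set of 17; other members are named where a count or unadjusted p singled them out after their values were seen. From each list up to 4 called genes with the smallest adjusted p were named per tissue, and both short ribosomal lists in full. Alternatives were other probe sets, a filter on dim genes (6 in at least 4 arrays), other scalings, variance models, array weights, Xist or Gapdh as covariates, single tissues and leaving out each array. The hybridization date in the labels was malformed and the same for all arrays. Whether they were hybridised together is therefore not known, and no batch could be tested.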

Additional observations from a re-analysis of the deposited data

Results flagged for a closer look

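Among 76 groups of 4 arrays looked at, 4 held an array far from the other 3; chance gives about 1 in 20. In treated cerebella B39 was lowest for Rpl37, at 9.19 against 9.79 to 9.89, and for Rps26, at 13.37 against 13.48 to 13.50. In vehicle cerebella the member median of B79 was 13.41 against 13.26 to 13.28. In vehicle lungs Rpl22 was 13.73 in B19 against 13.54 to 13.56.

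The Rps6 effect differed between tissues by 0.67 on the log2 scale (limma adjusted p = 0.00602), with -0.67 in cerebellum and -0.00 in lung.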

How the results depend on the processing

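In cerebellum 1 member was called. The count was 2 with probe sets averaged per gene (Rps20 added), with sets without a shared-probe suffix (Rps3) and with dim genes left out (Rpl27a). Of all genes tested, 3.97%, 4.58% and 8.21% were called in those settings. On leaving out an array the count ran from 1 to 2 (2.90% to 4.66% of all genes). It was 0 among bright members, a setting chosen after seeing the data. In lung 0 were called, and 0 on leaving out any array (26.7% to 30.1% of all genes). Sets without a shared-probe suffix gave 2 (Rpl41 and Rps3), against 30.2% of all genes. Quantile normalization gave 1 (Rps9), cyclic loess normalization 1 (Rps19) and a variance trend 3. Of all genes, 32.3%, 32.0% and 31.6% were called in those settings. For the difference of effects 1 was called, with 2 for averaged sets, sets without a suffix, cyclic loess or a variance trend, and 0 among bright members. Of all genes, 19.7%, 20.5%, 22.1% and 21.8% were called with averaged sets, sets without a suffix, cyclic loess and a variance trend. Between tissues 4 were called, with 25 under cyclic loess (57.9% of all genes), 0 with the Gapdh covariate (27.8%) and 3 to 5 on leaving out an array. Medians moved beyond the spread within groups (SD 0.0550) under cyclic loess: -0.018 in cerebellum, 0.010 in lung and 0.20 between tissues. Signs reversed for Eif6 in lung (-0.0025, sets without a suffix), Rpl7l1 in cerebellum (-0.10; difference of effects 0.084) and Tsc1 in lung (0.063) with averaged sets, and Rps28 between tissues (0.17, cyclic loess). Of 1354 uncalled values recomputed, 121 changed sign. The causes were not tested. In lung, where the Gapdh signal did not overlap between the groups, that covariate lowered calls over all genes to 9.93%. No paired analysis was possible because the groups share no replicate number.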
